A study of Mus musculus with 7 samples.

Results

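The vomeronasal type 1 receptors are the members described here. They were chosen by name, as the protein-coding genes of the RefSeq mouse gene table (GRCm38.p6, the build also called mm10) whose symbol starts with Vmn1r, and there were 231 of them among 21887 protein-coding genes on the assembled chromosomes. The series profiled the mouse embryonic fibroblast line iMEF by CUT&RUN, in which an antibody guides a nuclease to its target and the cut DNA is sequenced. Of the 7 libraries, 2 were for Lamin B1, 2 for the control antibody IgG, 1 for H3K14ac and 2 for H3K9me2, the latter made with unlike antibodies. No treatment, time or genotype is given for any of them in the labels, and the words wild type and merged stand only in the name of the domain list. The values below come from that list of 1437 lamin-associated domains (LADs), which was read as the pooled Lamin B1 result. It holds positions and no signal, so no value per library, no depth and no replicate error can be given, and no comparison with IgG or with the histone marks was made.

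Type 1 vomeronasal receptors are G protein-coupled receptors of the vomeronasal organ, the chemosensory organ of the nasal septum that detects pheromones and other social cues. They are made by sensory neurons of its apical layer, couple to the G protein subunit encoded by Gnai2, and act through the channel encoded by Trpc2. Each neuron is known to express very few of these receptor genes, and fibroblasts are not known to use them. The genes lie in tandem arrays that arose by repeated local duplication, and most encode the receptor in a single short exon. LADs are long chromosome regions that touch the lamina, the protein meshwork under the inner nuclear membrane, and are known to be rich in silent genes.

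In these fibroblasts 204 of the 229 Vmn1r genes with a chromosome position lay in a LAD by their midpoint, or 89.1% (exact 95% binomial interval, 84.3% to 92.8%). The share of all 21779 placed protein-coding genes in LADs was 23.9%. The other 2 members, Vmn1r186 and Vmn1r187, have coordinates below 3 Mb on chromosome 7, where no promoter of the table on a chromosome other than Y is placed, and were left without a position. The interval covers counting only. Neighbouring members share a domain and are not independent observations, so no test of the share was made. It was 88.6% when the whole gene had to lie in a LAD and 89.5% when any overlap counted.

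A small number of domains accounted for the family. The 204 members lay in 13 of the 1437 LADs, which had a median length of 992 kb against 445 kb for all LADs and ran from 155 kb to 5482 kb. The fullest of them held 85 members, or 41.7% of those in LADs. Members in LADs had a median distance of 410.1 kb to the nearest border, against 308 kb for all protein-coding genes in LADs. The members' median was 804 kb when LADs up to 250 kb apart were joined. For 175 of them that distance exceeded 100 kb and for 82 it exceeded 500 kb, while 15 lay less than 50 kb inside a border.

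The members outside LADs fell into a near and a far set. Of these 25, 9 lay within 100 kb of a border, the farthest at 82.9 kb, and 16 lay more than 1 Mb away, between 2685 kb and 3337 kb. No member was found at a distance between 82.9 kb and 2685 kb. The far set consisted of a single cluster on chromosome 6 and the isolated gene Vmn1r1 on chromosome 1.

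**Figure D1:**
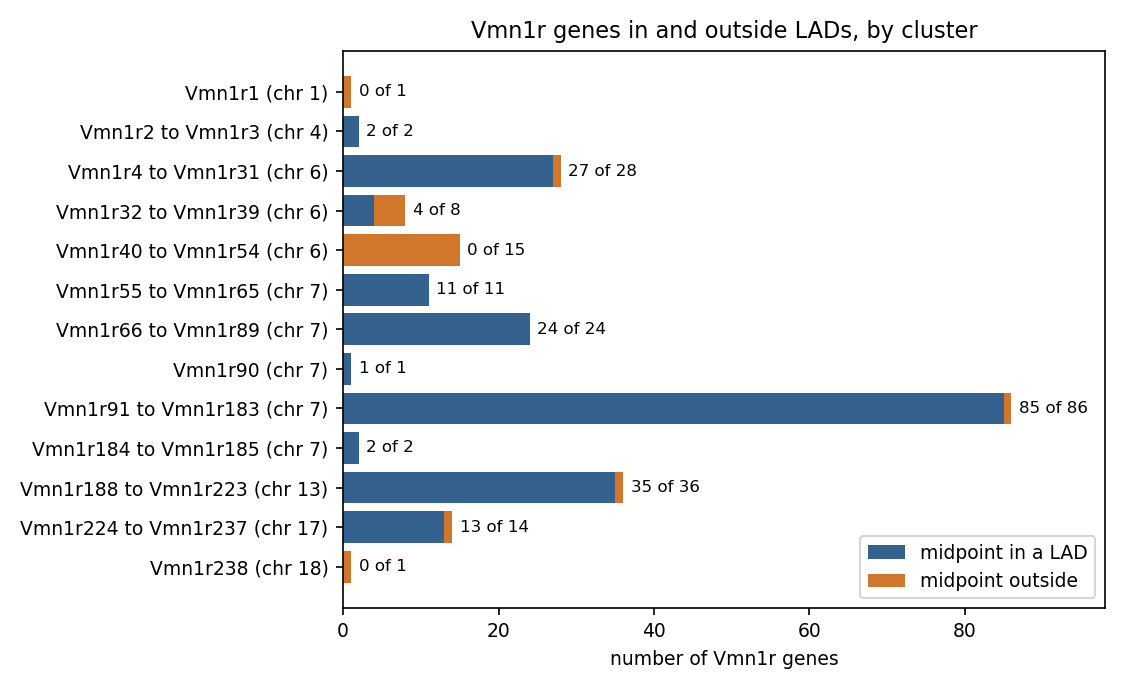
Number of Vmn1r genes with their midpoint in a LAD (blue) and outside (orange) in each run of members on a chromosome; a run ends where the next member is more than 1 Mb away. The cluster from Vmn1r40 to Vmn1r54 has 0 of 15 members in a LAD, and the cluster from Vmn1r91 to Vmn1r183 has 85 of 86.

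Taking a distance above 1 Mb between neighbours as the end of a cluster, the placed members formed 8 clusters of 3 or more genes, 2 pairs and 3 isolated genes on 7 chromosomes. The clusters held 222 members. Chromosome 7 carried 124 members with 123 in LADs, chromosome 6 carried 51 with 31, chromosome 13 carried 36 with 35, and chromosome 17 carried 14 with 13. The other protein-coding genes of those chromosomes lay in LADs in 33.5%, 26.8%, 20.6% and 17.2% of cases, in the same order.

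Of the 8 clusters, 2 lay in LADs with every member, 4 had exactly 1 member outside, 1 was divided evenly, and 1 lay outside completely. The lone outside member stood at an end of the cluster or in a gap between LADs in each of those 4 clusters. The map of clusters and domains shows where these members stand.

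**Figure D2:**
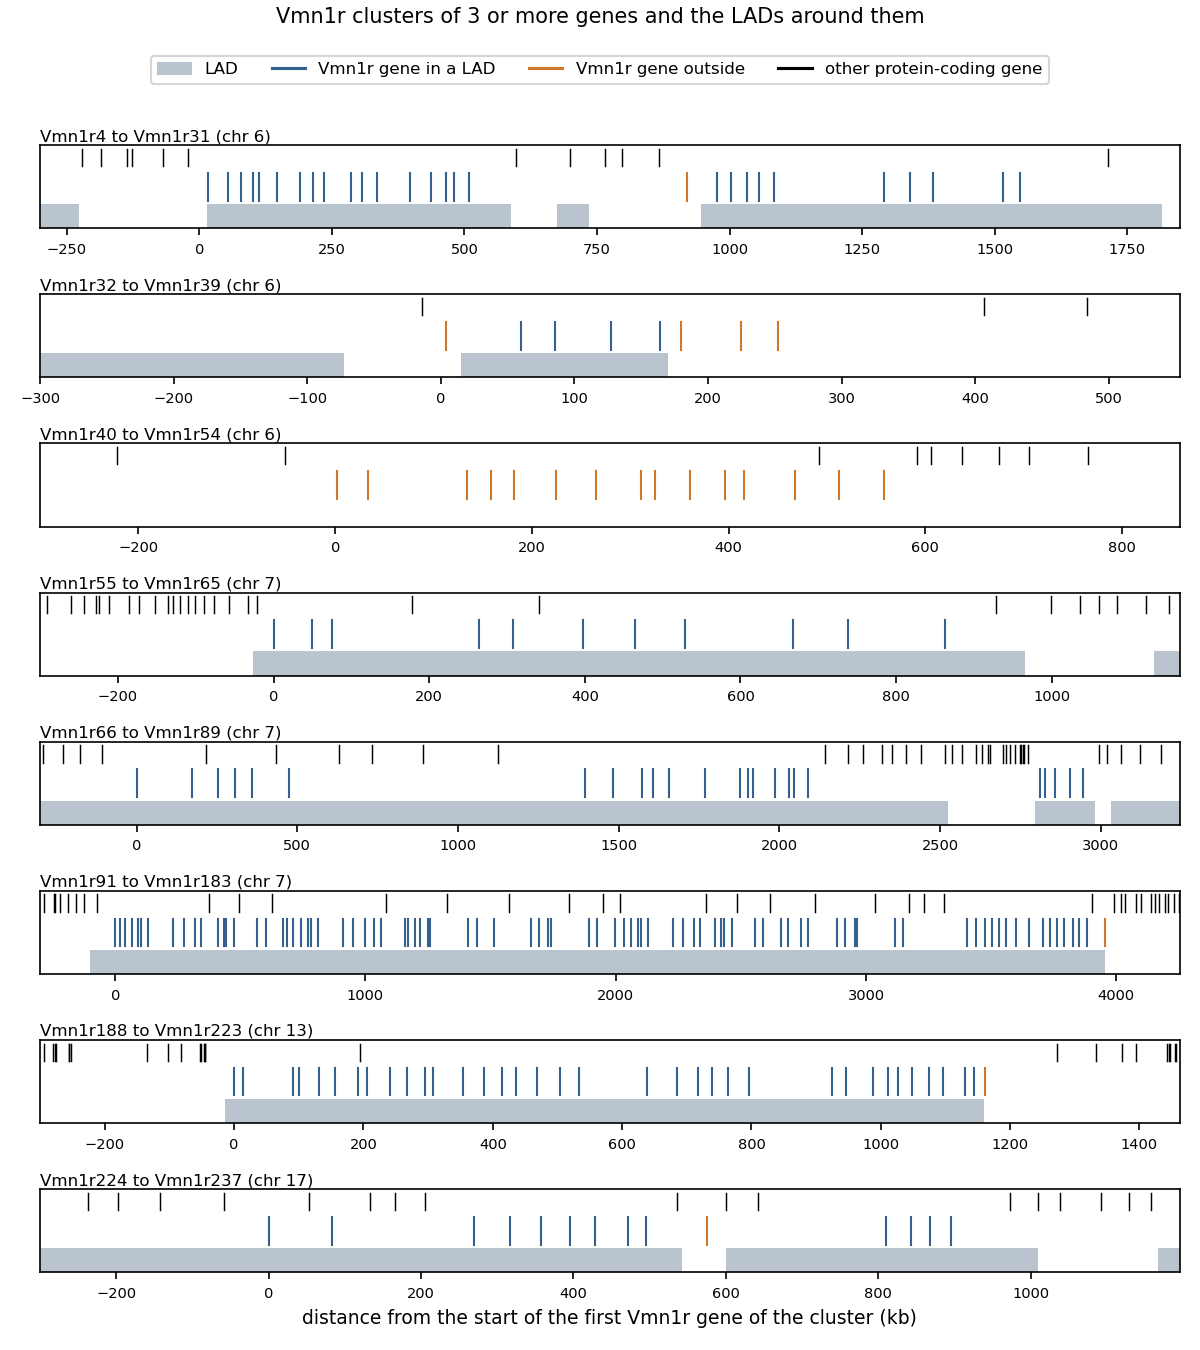
LADs (grey), Vmn1r gene midpoints in a LAD (blue) and outside (orange), and midpoints of other protein-coding genes (black) for the 8 clusters of 3 or more Vmn1r genes, by distance in kb from the start of the first member; each panel has its own scale. The third panel, from Vmn1r40 to Vmn1r54, contains no LAD.

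The largest cluster ran over 3955 kb of chromosome 7 (20101158 to 24055691) from Vmn1r91 to Vmn1r183 with 86 members, 21.7 per Mb. A single LAD from 20000064 to 24055051 covered 85 of them. It began 101 kb before the first member. The deepest member was Vmn1r138, 2027 kb from a border, and the least deep was Vmn1r181 at 70.5 kb. The remaining 19 of the 104 protein-coding genes in that domain included Nlrp4e and Nlrp5, oocyte genes of the NLR family, and V1rd19, which the table lists with the synonym Vmn1r182. Of the other protein-coding genes within 300 kb of the cluster, 1 of 8 on the low side and 0 of 12 on the high side lay in a LAD. Those on the high side were mostly zinc finger genes, beginning with Zfp180.

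Vmn1r183, the last gene of this array (chromosome 7, 24054774 to 24055691), was crossed by the domain's border. Its midpoint lay 0.181 kb outside and 30.3% of its bases lay inside. Borders have a step of about 2.5 kb, so on which side of the border this gene belongs cannot be read from the list.

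The array on chromosome 13 (22087878 to 23250323) filled its LAD almost from edge to edge. The domain from 22073272 to 23248268 measured 1175 kb and held 36 protein-coding genes, 35 of which were members and the other Gm11295. It began 14.6 kb before Vmn1r188 and ended 15.2 kb after Vmn1r222, and its deepest member was Vmn1r206 at 547 kb. The last gene of the array, Vmn1r223, started 0.969 kb beyond the border and had its midpoint 1.51 kb outside, which is within the step of the borders. On both sides the next genes were outside LADs. The histone gene H2bc11 was 44.2 kb before the array and 29.8 kb from the border, and Zfp322a was 103 kb after it. Within 300 kb, 0 of 15 other protein-coding genes on the low side and 0 of 9 on the high side lay in a LAD, and both sides included histone genes such as H2ac11 and H4c8.

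On chromosome 7 the cluster from Vmn1r55 to Vmn1r65 (5146490 to 6011010) had all 11 members in 1 LAD of 992 kb, at 26.8 to 491 kb from its borders. The next cluster, from Vmn1r66 to Vmn1r89 (10273828 to 13220289), had 24 of 24 members in LADs, but in a pair of domains. The first 19, up to Vmn1r84, lay in a domain of 5482 kb that also held 27 type 2 vomeronasal receptor genes. Vmn1r66 was the deepest member of the whole family, at 2525 kb. A gap of 270.0 kb followed, with 15 protein-coding genes and no member. Among them were Trim28 for a corepressor of zinc finger proteins, Chmp2a and Ube2m. Beyond it, Vmn1r85 to Vmn1r89 were the 5 protein-coding genes of a LAD of 185 kb.

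The remaining members of chromosome 7 were also in LADs. Vmn1r90 stood by itself in a domain of 2522 kb with sulfotransferase genes of the Sult2a group and Obox homeobox genes, 1254 kb from a border. Vmn1r184 and Vmn1r185 shared a domain of 1155 kb with 12 other protein-coding genes, among them cytochromes P450 such as Cyp2b9, and lay 339.8 and 471 kb from its borders.

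Chromosome 17 carried a cluster from Vmn1r224 to Vmn1r237 (20419163 to 21314886) in which 13 of 14 members were in LADs. The domain of 3047 kb held Vmn1r224 to Vmn1r232 together with 21 type 2 receptor genes. The next, of 410.0 kb, held Vmn1r234 to Vmn1r237. Between them a gap of 57.5 kb contained Vmn1r233, 24.8 kb from a border, and Zfp160. The pair on chromosome 4, Vmn1r2 and Vmn1r3, lay 154 and 166 kb inside a LAD.

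Chromosome 6 held 3 clusters and 20 of the 25 members outside LADs. From Vmn1r4 to Vmn1r31 (56923914 to 58472878), 27 of 28 members were in LADs. A domain of 572 kb contained 17 protein-coding genes, each of them a member, and a domain of 870.0 kb contained Vmn1r22 to Vmn1r31 and Abcg2, a transporter gene. The outside member, Vmn1r21, lay 25.5 kb from a border in a gap of 210 kb with Pyurf, Lancl2 and Vopp1. Vmn1r4, whose annotated gene spans 33695 bp and was the longest in the family, was crossed by the border with 53.8% of its bases inside. The start that the promoter table gives for it, which is a start codon, lay 17 kb inside the LAD.

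The small cluster from Vmn1r32 to Vmn1r39 (66552183 to 66805332) straddled a LAD of 155 kb. Vmn1r33, Vmn1r34, Vmn1r35 and Vmn1r36 were its 4 protein-coding genes, at 45.2, 70.3, 42.7 and 5.51 kb from a border. Vmn1r32 lay outside on the low side at 11 kb. On the high side Vmn1r37, Vmn1r38 and Vmn1r39 lay outside at 9.91, 54.7 and 82.9 kb. Both borders of this LAD fell between neighbouring members of the array.

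The cluster from Vmn1r40 to Vmn1r54 (89711261 to 90270053) lay outside LADs with all 15 members. It occupied 559 kb in a stretch without LADs from 82529387 to 92954353, which measured 10425 kb and held 161 protein-coding genes. The distance to the nearest LAD border ran from 2685 kb for Vmn1r54 to 3241 kb for Vmn1r40. With 26.8 members per Mb, its density lay within the range of the other 7 clusters, 8.15 to 31.6 per Mb. The genes beside it, Txnrd3 for a thioredoxin reductase on the low side and BC048671 on the high side, were outside LADs too. V1ra8, a protein-coding gene within this cluster that the name rule does not take in, lay outside at 2751 kb. These 15 members were 60.0% of all members outside LADs.

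The flanks of the remaining clusters differed in placement. Within 300 kb of the cluster from Vmn1r66 to Vmn1r89, 4 of 4 other protein-coding genes on the low side and 3 of 5 on the high side lay in LADs. For Vmn1r224 to Vmn1r237 it was 4 of 4 and 1 of 6, and for Vmn1r55 to Vmn1r65 it was 1 of 19 and 2 of 7. On chromosome 6 it was 0 of 6 and 1 of 1 for Vmn1r4 to Vmn1r31, 0 of 1 and 0 of 2 for Vmn1r32 to Vmn1r39, and 0 of 2 and 0 of 6 for Vmn1r40 to Vmn1r54.

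Among isolated genes, Vmn1r1 (chromosome 1, 182157178 to 182158098) lay 3337 kb from the nearest border, in a stretch of 7415 kb without LADs. Vmn1r238 (chromosome 18, 3122492 to 3123412) lay 6.05 kb from the first LAD of its chromosome.

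**Figure D3:**
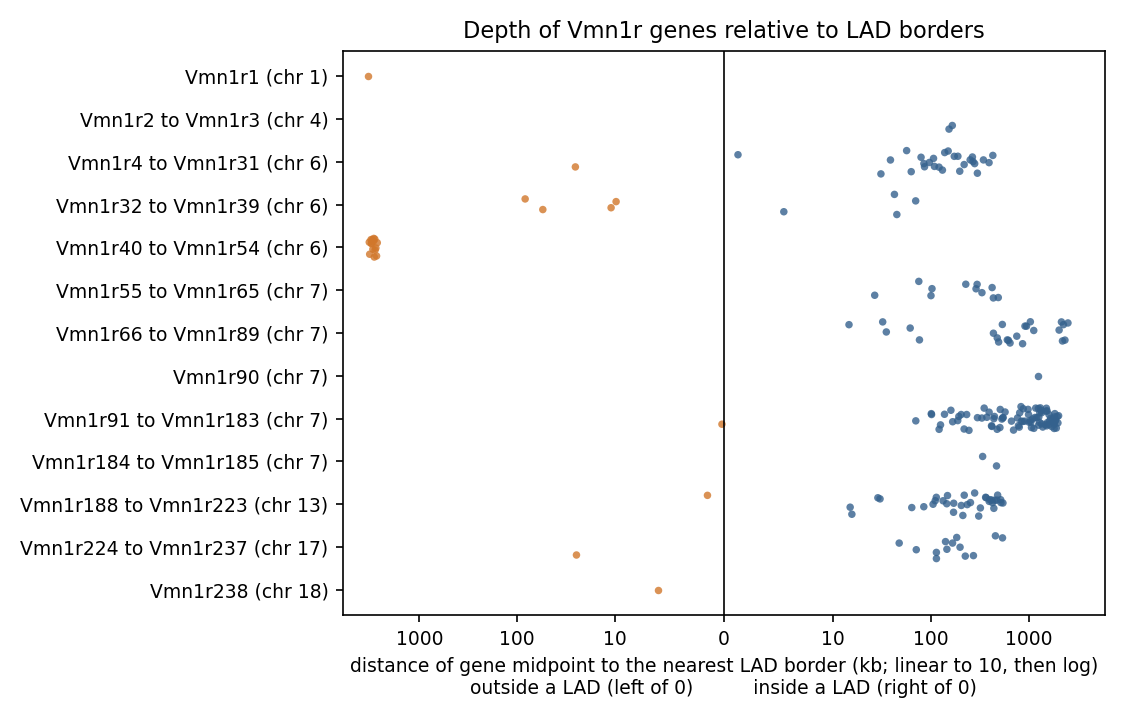
Distance in kb of each placed Vmn1r gene midpoint to the nearest LAD border, inside to the right and outside to the left of 0, by run of members; the axis is linear up to 10 kb and logarithmic beyond. Vmn1r1 and the 15 genes from Vmn1r40 to Vmn1r54 stand at the far left, beyond 2685 kb, and Vmn1r183 and Vmn1r223 stand next to the border.

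The older V1r symbols in the gene table name subfamilies by a letter and group receptors by sequence relationship. Such a symbol with a single letter was given for 126 placed members in 11 subfamilies, 2 members had symbols of more than 1 subfamily, and 101 had none. All 8 V1ra and all 6 V1rb members were in the outside cluster of chromosome 6. V1rc members, also on chromosome 6 but in the other clusters, were in LADs in 27 of 31 cases, and the 4 outside lay 9.91 to 54.7 kb from a border. All 21 V1rh and 9 V1ri members shared the LAD of chromosome 13, and all 11 V1rg members shared a LAD of chromosome 7. V1rd members, on chromosome 7, were in LADs in 18 of 19 cases, the exception being Vmn1r183.

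V1re was the subfamily of these that occurred on more than 1 chromosome. Its 13 members lay in 3 LADs on chromosomes 7 and 17, with none outside. V1rf, on chromosome 17, had 4 of 5 in a LAD, V1rj had 2 of 2 and V1rk 1 of 1. V1rc, V1rd and V1re members lay in more than 1 cluster, and the other 8 subfamilies in 1 cluster each, so for those 8 the placement of the subfamily and that of its cluster cannot be told apart.

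Disabled copies, as typed in the gene table, were counted apart. Vmn1r-ps103 of chromosome 13 is typed there as protein-coding in spite of its name, and was counted as a member. Of 142 Vmn1r pseudogenes, 138 had a chromosome position and 118 of these lay in LADs (85.5%), against 50.9% of 10330 pseudogenes of all kinds. Within the cluster from Vmn1r40 to Vmn1r54, 0 of 7 pseudogenes were in a LAD. Within the array of chromosome 13 it was 36 of 36, and within that from Vmn1r91 to Vmn1r183 it was 13 of 13. Protein-coding genes within the spans of the runs that are not members by name were in LADs in 46 of 67 cases. These include V1ra8, V1rd19, Gm10670, Gm16451 and Gm10665, which the table lists with a Vmn1r synonym and of which 4 were in LADs. Of the 21 outside, 15 were those of the gap between Vmn1r84 and Vmn1r85.

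The sequences around the gene starts were read from the RefSeq promoter table (GRCm38.p6), which gives 250 bases before and 50 bases after each start and held 206 of the 231 members. In 181 of these 206 windows (87.9%) the annotated start is a start codon, so most windows lie before the coding sequence and not before a mapped transcription start. The windows below show the outside cluster first (Vmn1r47, whose window is identical to that of Vmn1r48, and Vmn1r54), then genes with a midpoint just outside a border (Vmn1r183 and Vmn1r223), and then the deepest members of their clusters on chromosomes 6, 13 and 7. Capitals mark the start codon at the annotated start and any TATAAA on either strand, written 5′ to 3′ on the strand of the gene.
Vmn1r47: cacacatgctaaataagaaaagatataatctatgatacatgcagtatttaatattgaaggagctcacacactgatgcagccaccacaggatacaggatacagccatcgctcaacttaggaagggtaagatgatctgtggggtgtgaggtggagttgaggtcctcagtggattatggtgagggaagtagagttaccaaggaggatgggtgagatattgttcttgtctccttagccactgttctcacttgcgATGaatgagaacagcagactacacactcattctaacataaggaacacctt
Vmn1r54: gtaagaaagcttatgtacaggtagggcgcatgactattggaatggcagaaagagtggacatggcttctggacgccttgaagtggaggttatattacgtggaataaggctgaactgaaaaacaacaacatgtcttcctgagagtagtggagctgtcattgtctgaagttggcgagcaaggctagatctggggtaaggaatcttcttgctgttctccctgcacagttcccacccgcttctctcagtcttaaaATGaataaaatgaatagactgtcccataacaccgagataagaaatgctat
Vmn1r183: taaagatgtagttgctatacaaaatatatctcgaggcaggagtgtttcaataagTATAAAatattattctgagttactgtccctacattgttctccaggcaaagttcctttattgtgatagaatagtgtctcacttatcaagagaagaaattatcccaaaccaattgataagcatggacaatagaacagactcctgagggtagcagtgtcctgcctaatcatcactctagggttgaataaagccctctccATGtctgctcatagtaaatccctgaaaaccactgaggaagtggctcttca
Vmn1r223: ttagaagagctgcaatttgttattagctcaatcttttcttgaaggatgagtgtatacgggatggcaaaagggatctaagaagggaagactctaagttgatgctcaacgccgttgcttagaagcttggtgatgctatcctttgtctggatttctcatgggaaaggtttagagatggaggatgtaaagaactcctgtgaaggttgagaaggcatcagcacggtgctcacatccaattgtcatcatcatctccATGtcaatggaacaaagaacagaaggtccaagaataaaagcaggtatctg
Vmn1r29: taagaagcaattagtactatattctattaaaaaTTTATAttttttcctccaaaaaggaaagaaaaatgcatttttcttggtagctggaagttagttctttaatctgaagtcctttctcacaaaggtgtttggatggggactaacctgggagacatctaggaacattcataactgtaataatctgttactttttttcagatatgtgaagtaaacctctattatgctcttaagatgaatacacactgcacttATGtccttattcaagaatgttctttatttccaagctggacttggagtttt
Vmn1r206: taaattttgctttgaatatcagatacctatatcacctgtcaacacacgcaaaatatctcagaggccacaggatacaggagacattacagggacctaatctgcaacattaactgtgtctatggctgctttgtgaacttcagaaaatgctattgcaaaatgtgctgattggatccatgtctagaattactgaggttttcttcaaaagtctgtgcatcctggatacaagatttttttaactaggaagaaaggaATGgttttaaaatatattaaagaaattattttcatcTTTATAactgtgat
Vmn1r138: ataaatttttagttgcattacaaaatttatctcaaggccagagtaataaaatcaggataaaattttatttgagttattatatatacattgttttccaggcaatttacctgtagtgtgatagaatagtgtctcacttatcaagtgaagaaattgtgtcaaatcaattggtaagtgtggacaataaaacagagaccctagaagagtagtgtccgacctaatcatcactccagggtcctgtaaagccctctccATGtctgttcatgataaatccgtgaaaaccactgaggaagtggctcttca
In the order printed, the windows are chr6:90021638-90021937, chr6:90268856-90269155, chr7:24054524-24054823, chr13:23248988-23249287, chr6:58307047-58307346, chr13:22620986-22621285 and chr7:22028848-22029147. Vmn1r206 and Vmn1r138 are on the minus strand and the others on the plus strand.

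The windows of the family were poor in G and C. Their median GC content was 36.0% (quartiles 33.7% and 37.6%) and their median number of CpG dinucleotides was 1. In 19991 windows of protein-coding genes outside the chemoreceptor families these were 57.3% and 14. The annotated start is a start codon in 3.80% of those other windows, against 87.9% for members, so the windows compared lie at unlike features. Windows of type 2 vomeronasal and olfactory receptors were similar to those of the members, with median GC contents of 38.2% and 35%. Their starts are start codons in 86.4% and 72.4%. Members in LADs had a median of 35.7% (184 windows) and members outside one of 42.3% (22 windows). Of those 22, 14 came from the cluster from Vmn1r40 to Vmn1r54, whose median was 43.2%, while the medians of the other 7 clusters lay between 30.7% and 37.7%. The other 8 outside members with a window ranged widely. Vmn1r1 had 50.0%, Vmn1r32 had 44.0%, Vmn1r223 had 42.3%, Vmn1r183 had 38.7% and Vmn1r233 had 35.7%, while Vmn1r21, Vmn1r37 and Vmn1r38 had 31.3%, 31.0% and 30.3%. Members of a cluster are copies of each other, so the windows are not independent and no test was made.

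**Figure D4:**
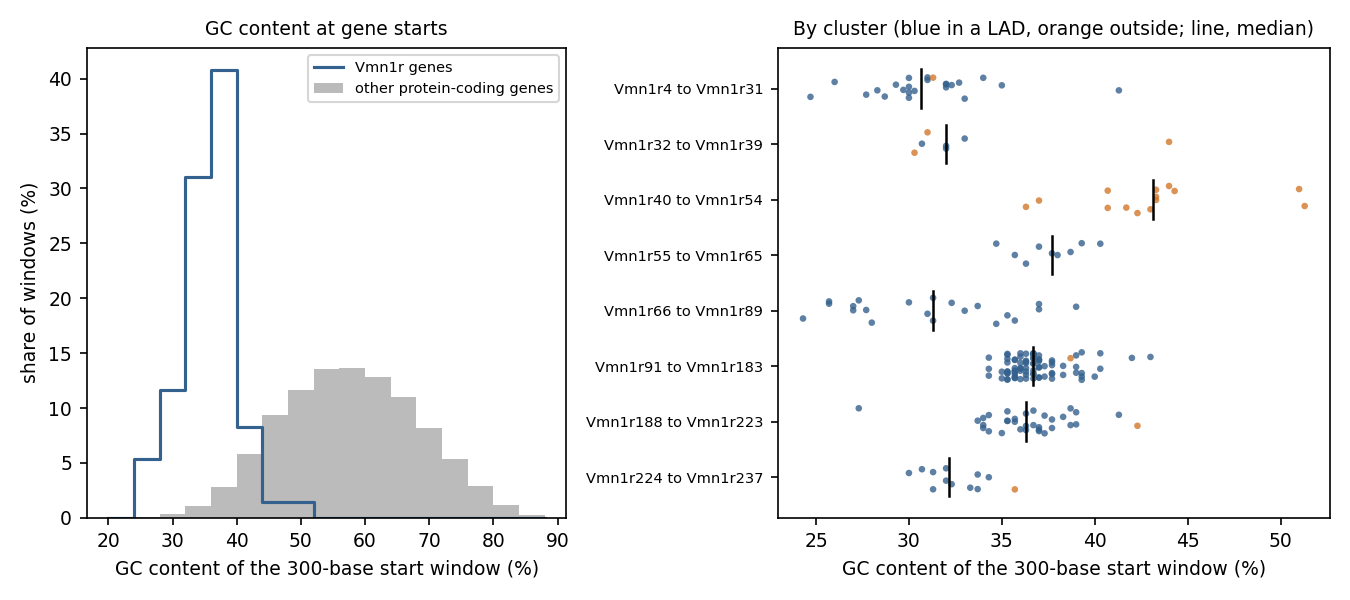
GC content in percent of the 300-base windows at gene starts, as a distribution for 206 Vmn1r genes and 19991 windows of other protein-coding genes (left) and for each Vmn1r cluster of 3 or more genes with its median (right). The median of the cluster from Vmn1r40 to Vmn1r54, 43.2%, is the highest of the 8. The annotated start is a start codon in 87.9% of the Vmn1r windows and in 3.80% of the other windows.

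Motifs were searched as plain letters on both strands. TATAAA occurred in 87 of 206 windows (42.2%), against 12.6% of 21263 windows of all protein-coding genes. It occurred in 41.0% of olfactory receptor windows and 22.9% of type 2 receptor windows. The annotated start is a start codon in 87.9% of the members' windows but in 8.13% of all windows. Median GC content also differs, at 36.0% and 56.3%, and the part of either in these motif shares was not tested. Among members TATAAA was found in 86 of 184 windows in LADs and in 1 of 22 outside, that of Vmn1r183. It was absent from the 14 windows of Vmn1r40 to Vmn1r54 and also from the 7 windows of Vmn1r32 to Vmn1r39, on both sides of that LAD's borders, and the cluster from Vmn1r91 to Vmn1r183 supplied 41 of the 87. TAATTA, the core letters of many homeodomain sites, occurred in 15 windows (7.28%), against 4.53% of all, 18.6% of olfactory receptor and 16.9% of type 2 receptor windows. The palindromic motif of Ebf factors occurred in none (0.959% of all). Occurrences of TATAAA and TAATTA can overlap and were counted separately.

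Copies in the largest array were close to identical, which bears on how reads can be placed there. In the cluster from Vmn1r91 to Vmn1r183, 52 of 83 windows were identical over all 300 bases to that of at least 1 other member, and 67 matched another at 95% or more of their positions. In the other clusters the identical windows were those of Vmn1r47 and Vmn1r48. The window of Vmn1r138 printed above is shared with Vmn1r111, Vmn1r118, Vmn1r131, Vmn1r166 and Vmn1r257. Vmn1r242, on the minus strand at chr7:20233779-20234078, differs from it at 1 position, in capitals here.
Vmn1r242: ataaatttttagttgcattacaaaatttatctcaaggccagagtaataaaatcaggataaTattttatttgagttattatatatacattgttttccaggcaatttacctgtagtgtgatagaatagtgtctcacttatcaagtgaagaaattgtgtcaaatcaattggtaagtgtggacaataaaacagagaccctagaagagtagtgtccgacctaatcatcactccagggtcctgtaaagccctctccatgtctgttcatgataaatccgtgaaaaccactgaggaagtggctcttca
How reads with several possible positions were treated is not given in the sources used here, and their part in the domain over this array was not tested. Without this cluster, 119 of 143 members were in LADs (83.2%).

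Beside the other large chemoreceptor families, the members were placed as follows. Type 2 vomeronasal receptor genes, which serve the basal layer of the organ, were in LADs in 122 of 123 cases (99.2%; exact 95% binomial interval, 95.6% to 100.0%). Olfactory receptor genes were in LADs in 981 of 1109 cases (88.5%; 86.4% to 90.3%). Protein-coding genes outside these families were in LADs in 19.2% of 20318 cases. The 1 type 2 receptor gene outside was 4.73 kb from a border. Of 128 olfactory receptor genes outside, 70 lay more than 1 Mb away (54.7%), as did 16 of the 25 members outside (64.0%) and 43.0% of the 16572 protein-coding genes of all kinds outside. Of the 16 members more than 1 Mb away, 15 stand in the single cluster from Vmn1r40 to Vmn1r54 and are not independent observations. Differences between the families were not tested.

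**Figure D5:**
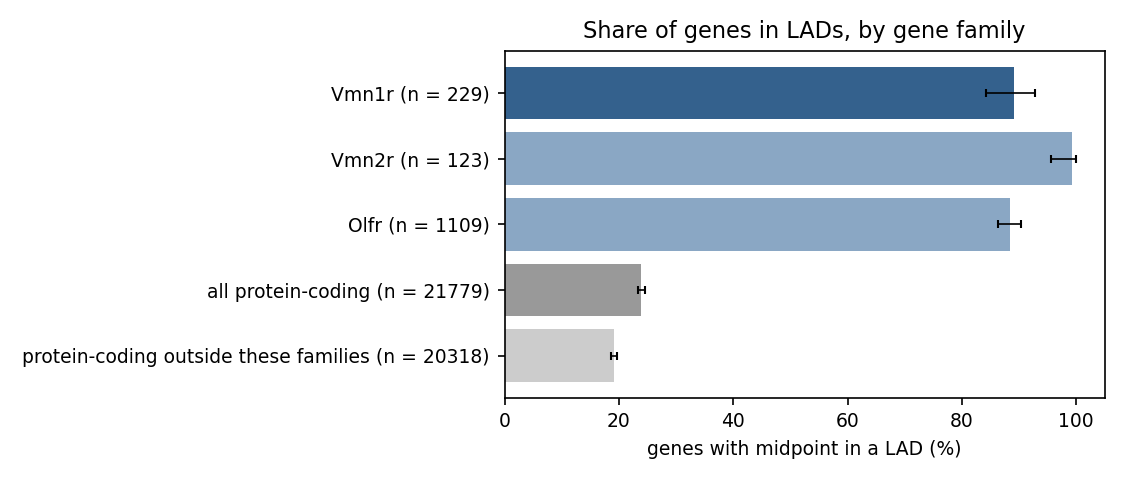
Share in percent of genes with their midpoint in a LAD for Vmn1r, Vmn2r and Olfr genes, for all placed protein-coding genes and for those outside the 3 families; bars start at 0 and lines are exact 95% binomial intervals that cover counting only. The receptor families lie at 88.5% or above and all protein-coding genes at 23.9%.

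Listed genes of transduction, guidance, neuronal fate and nuclear architecture were placed one by one. The lists were not limited to genes known to work with these receptors. Their small counts are to be read against the 23.9% of all protein-coding genes in LADs. Of 12 transduction genes, 0 were in a LAD. Gnai2, for the G protein subunit of the apical layer, was 461 kb from the nearest border, Gnao1, for that of the basal layer, was 91.9 kb away, and the channel gene Trpc2 was 439.8 kb away. Omp, a marker of mature olfactory and vomeronasal neurons, was 1249.6 kb away. Of 10 genes for sorting, guidance and maturity, 2 were in LADs, namely the axon guidance receptor gene Robo2 and the adhesion gene Ncam2. Among genes for neuronal fate and transcription, the proneural factor gene Neurod1 lay 22.5 kb and Ebf1 lay 155 kb inside a LAD, while the homeobox genes Lhx2 and Emx2 lay 923 and 4291 kb outside. None of 4 genes of nuclear architecture (Lbr, Lmna, Lmnb1 and Lmnb2) was in a LAD.

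Other receptors of the organ resembled the members in part. All 5 formyl peptide receptor genes of the list (Fpr-rs3, Fpr-rs4, Fpr-rs6, Fpr-rs7 and Fpr3) were in the LAD of chromosome 17 that also held Vmn1r224 to Vmn1r232. Of 9 H2-M genes, whose products accompany type 2 receptors, H2-M1, H2-M9 and H2-M11 were in a LAD and the 6 H2-M10 genes were 8.35 to 184 kb outside. As a check of the cells, none of 8 fibroblast genes such as Col1a1 and Pdgfra had its midpoint in a LAD. The same held for the 4 neuron markers Omp, Trpc2, Gnai2 and Gnao1, so this placement does not tell the cell types apart, and no expression values were used.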

How the data were processed

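CUT&RUN of Lamin B1 in mouse embryonic fibroblasts (2 libraries, 500000 cells per reaction per the labels' protocols) is the source of the list used. Per the submitters' processing notes the tools include Bowtie2 and the build is mm10. The domain caller, its threshold and the use of IgG are not given in the sources used here. The authors deposited start and end positions in base pairs and a score, which was 0 in every line and was not used. Domain lengths were multiples of 2.5 kb to within 125 bp in 100% of lines, and no gap was shorter than 52.5 kb. The read depth is unknown.

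Genes were placed by their midpoint with Python 3.11.15, pandas 2.3.3 and numpy 2.4.6, and exact binomial intervals came from scipy 1.17.1. The placement was tested on simulated data. Runs of members end at a distance above 1 Mb. No chance test was made. Proteins of the members, planned for description, were not analysed here, and some genes of the lists are not reported here. Named genes are members outside LADs or across a border, the first, last, deepest and least deep member of a cluster, isolated members and the pathway list. The other genes of gaps, domains and flanks that are named were chosen after their positions were seen. The members and lists were chosen with earlier results of these data known.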

Additional observations from a re-analysis of the deposited data

How the results depend on the processing

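Of the alternatives tried, using only LADs of at least 500 kb moved the share of members in LADs from 89.1% to 83.4%, because 13 members in shorter domains drop out (Vmn1r33 to Vmn1r36, Vmn1r85 to Vmn1r89 and Vmn1r234 to Vmn1r237). Leaving out the cluster from Vmn1r91 to Vmn1r183, chosen after seeing the data, gave 83.2%. The remaining alternatives ran from 87.7% (pseudogenes included) to 90.4% (LADs joined at 250 kb), with 89.1% for LADs of at least 100 kb. The placement by the start in the promoter table, a start codon for most members (89.8%), was also added after seeing the data. When gaps up to 100 kb were closed, the LADs took in Vmn1r32 and Vmn1r233, and at 250 kb also Vmn1r21. Moving borders outward by 5 kb took in Vmn1r183 and Vmn1r223, and moving them inward by 5 kb left out Vmn1r4. Both moves were added after seeing the data. The cluster from Vmn1r40 to Vmn1r54 stayed outside under each of these settings for the LADs and their borders. Its nearest border is 2685 kb away, so none of these settings could have taken it in. The share of all protein-coding genes went from 23.9% to 21.9% with whole genes, 25.3% with any overlap, 20.8% with LADs of at least 500 kb, 24.7% and 27.5% with joining at 100 and 250 kb, and 19.2% without the 3 receptor families, the last added after seeing the data. The median depth of members went from 410.1 to 804 kb when LADs up to 250 kb apart were joined. There were 13 runs of members, 15 with a limit of 500 kb and 12 with 2 Mb. No paired analysis was possible because the list carries no values per replicate. Results without either Lamin B1 library could not be computed from a merged list.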
